A study of Homo sapiens with 9 samples.

Results

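The genes described here are the inducible brakes on MAP kinase signalling: the MAP kinase phosphatase genes DUSP1, DUSP2, DUSP4, DUSP5, DUSP6 and DUSP10, the Sprouty genes SPRY2 and SPRY4, and the Sprouty-related genes SPRED1 and SPRED2. They were chosen by gene symbol, and all 10 were found among the 58037 genes of the expression table. MAP kinase phosphatases remove the phosphates that activate ERK, p38 and JNK. Sprouty and SPRED proteins act further up, between receptor tyrosine kinases, RAS and RAF, and SPRED proteins bring the RAS inhibitor neurofibromin to the membrane. Many of these genes are themselves switched on by the kinases they restrain, so their transcripts are widely read as a trace of pathway activity in breast and other cancer cells.

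Total RNA was sequenced from 3 human breast cancer cell lines that the submitters describe as triple-negative, MDA-MB-231, MDA-MB-436 and also MDA-MB-453, all grown in DMEM with serum. EZH2, the target of the study, is the catalytic subunit of the Polycomb complex that methylates histone H3 at lysine 27. Each line gave 1 control library, 1 library labelled GSK343, an inhibitor of the EZH2 methyltransferase, and 1 library labelled shEZH2, a short hairpin RNA against EZH2, so each label had 3 libraries and the lines served as its replicates. The controls carry the label of no treatment, while the column headers of the table name a control hairpin. The sources used here give neither the dose and duration of GSK343 nor whether the libraries of a line came from separate cultures, so p-values measure the spread between these libraries. Wherever 3 values of a gene are given in line order, MDA-MB-231 comes first, MDA-MB-436 follows and MDA-MB-453 is last.

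EZH2 followed the labels only in part. In line order, its level was 27.4, 38.9 and 42.3 RPKM (read counts scaled to gene length and library size) in the controls, 5.77, 7.53 and 7.99 RPKM in the libraries labelled GSK343, and 16.4, 37.4 and 16.2 RPKM in those labelled shEZH2. The transcript was thus lowest under the inhibitor label, and the MDA-MB-436 library labelled shEZH2 stood beside its control. With limma on log2(RPKM + 1) and Benjamini-Hochberg adjustment over 12965 genes, EZH2 fell by 2.19 ± 0.47 under the GSK343 label (adjusted p = 0.000424; ± is the distance to the 95% confidence bound), and its difference under the shEZH2 label was -0.70 ± 0.47 (adjusted p = 0.0597). The libraries labelled MDA-MB-453, a line known for its luminal type, had 0 RPKM of the luminal marker PIP, as had all 9 libraries. They had 1.01 to 2.37 RPKM of FOXA1, below the 2.77 to 3.31 RPKM of MDA-MB-436. Other luminal markers were present in them, with XBP1 at 39.15 to 50.5 RPKM and SPDEF at 5.90 to 20.1 RPKM. SPDEF was higher in MDA-MB-231, at 24.4 to 43.0 RPKM. The summed level of 6 mesenchymal markers (VIM, CD44, AXL, MSN, ZEB1 and CAV1) was 690.5 to 1165 RPKM in the libraries labelled MDA-MB-453. It was 550.1 to 824.8 RPKM in MDA-MB-436 and 849 to 1215 RPKM in MDA-MB-231. The level of the libraries labelled MDA-MB-453 lay strictly between those of the other lines in all 3 conditions for 36.9% of genes tested. Whether these libraries are independent of those of the other lines was not tested, and each n = 3 and p-value here counts them as a line of their own. Groups are therefore called by their labels throughout. Without the libraries labelled MDA-MB-453, EZH2 differed by -2.15 ± 0.49 under the GSK343 label (limma adjusted p = 0.0213) and by -0.38 ± 0.49 under the shEZH2 label (adjusted p = 0.359). Without the MDA-MB-436 library labelled shEZH2, EZH2 was lower by 1.03 ± 0.43 under the shEZH2 label. That library was the one whose EZH2 stood beside its control, so a larger fall without it was fixed in advance and tests nothing.

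In the controls the order of mean levels, which RPKM allows to be compared between genes, ran from DUSP4 at 53.3 ± 33.4 RPKM (SD, n = 3) and DUSP1 at 48.5 ± 20.0 RPKM (SD, n = 3) down to DUSP2 at 0.196 ± 0.285 RPKM (SD, n = 3). DUSP5 (26.2 RPKM), DUSP6 (26.0 RPKM), SPRY2 (20.5 RPKM), SPRY4 (17.9 RPKM) and SPRED2 (17.3 RPKM) formed the middle, and DUSP10 (9.37 RPKM) and SPRED1 (8.53 RPKM) followed. Neighbours in this order differed by less than the larger of their SDs over lines, except DUSP1 and DUSP5, SPRED2 and DUSP10, and SPRED1 and DUSP2. All but DUSP2 reached 1 RPKM in at least 3 of the 9 libraries and were tested.

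**Figure D1:**
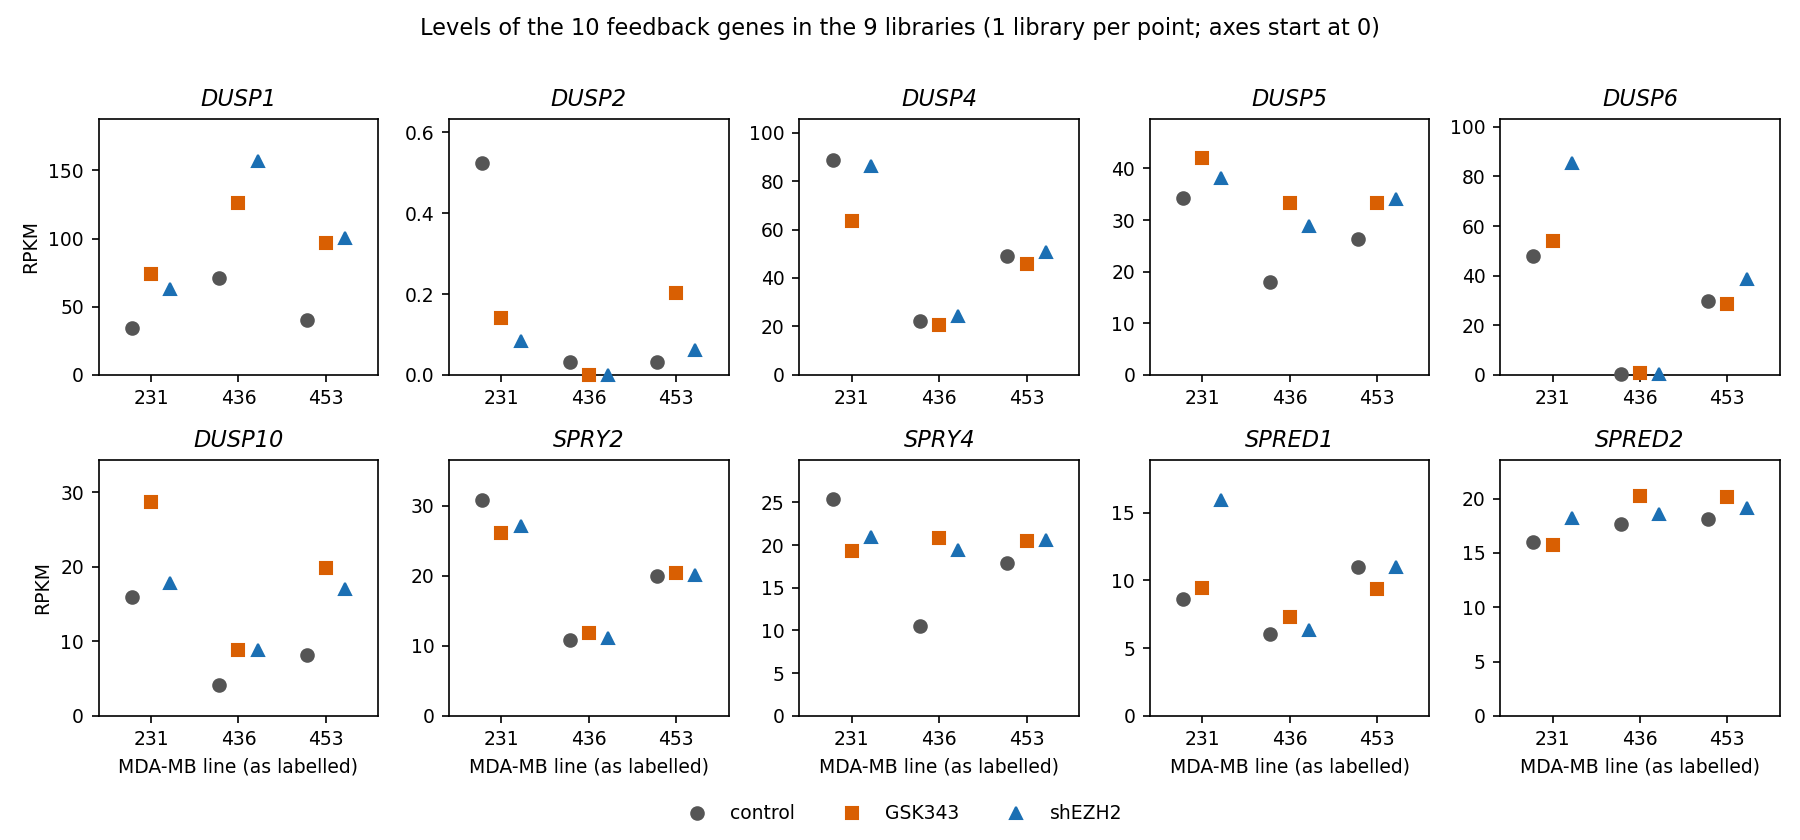
Level of each of the 10 genes in RPKM (vertical axes, linear and starting at 0, with a scale of their own per gene) by cell line as labelled (horizontal axis), 1 point per library, with symbols for control, GSK343 and shEZH2 labels. DUSP1 lies above the control in every line under both labels, DUSP6 is below 1 RPKM in all 3 MDA-MB-436 libraries, and SPRED2 stays between 15.7 and 20.3 RPKM.

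When both labels were compared with the controls within lines, 3 of the 9 tested genes rose and 0 fell, where 12.2% of all genes tested rose and 4.3% fell. The 3 were DUSP1, DUSP10 and DUSP5, all phosphatase genes. Under the GSK343 label alone 2 of 9 rose (6.25% of all genes) and 0 fell (1.6% of all genes), and under the shEZH2 label alone 2 of 9 rose (8.35% of all genes) and 0 fell (2.28% of all genes). DUSP1 and DUSP10 were the genes called in each. The median log2 difference of the 9 genes for both labels together was 0.24, beside 0.05 over all genes tested. In bulk RNA of this kind, a change in the share of cells that express a gene and a change in the RNA per cell cannot be told apart.

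DUSP1, also known as MKP-1, is the archetype of the family: a nuclear phosphatase of p38, JNK and ERK whose gene is an immediate-early gene. It lies on chromosome 5 (GRCh38, chr5:172768090-172771195, minus strand). In line order the controls had 34.1, 71.4 and 40.1 RPKM, and the targeted libraries had 74.0, 126 and 96.4 RPKM under the GSK343 label, and 62.8, 157 and 100.3 RPKM under the shEZH2 label. Every targeted library was above the control of its own line, although the MDA-MB-231 library labelled shEZH2 was below the MDA-MB-436 control, so the groups overlapped. Within lines the ratio to control ran from 1.77 in the MDA-MB-436 library labelled GSK343 to 2.50 in the MDA-MB-453 library labelled shEZH2. DUSP1 rose 2.07-fold under the GSK343 label (log2 difference 1.05 ± 0.34; limma, Benjamini-Hochberg adjusted p = 0.00308) and 2.14-fold under the shEZH2 label (1.10 ± 0.34; adjusted p = 0.00235). For both labels together the log2 difference was 1.07 ± 0.29 (limma adjusted p = 0.000775), and the fold changes here and below are on the scale of RPKM + 1. Without the libraries labelled MDA-MB-453 it was 0.97 (limma adjusted p = 0.0381), while the separate differences of 0.95 and 0.996 no longer passed (adjusted p = 0.0787 and 0.0816). Without the MDA-MB-436 library labelled shEZH2, DUSP1 still passed under the shEZH2 label at 1.02 (limma adjusted p = 0.00916). An antisense gene over DUSP1, AC022217.3, had 0 to 0.513 RPKM.

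The 250 bases before the RefSeq start of DUSP1 are shown because this was the gene with the largest difference of the 10 and its promoter is the best known of the group, with cAMP response elements. They are set beside the same window of DUSP2, another nuclear phosphatase gene, which was barely detected in these lines. Both are printed 5′ to 3′ on the minus strand of GRCh38.p14, DUSP1 at chr5:172771196-172771445 and DUSP2 at chr2:96145441-96145690, and capitals mark TGACG, the core of the cAMP response element, on either strand.
DUSP1: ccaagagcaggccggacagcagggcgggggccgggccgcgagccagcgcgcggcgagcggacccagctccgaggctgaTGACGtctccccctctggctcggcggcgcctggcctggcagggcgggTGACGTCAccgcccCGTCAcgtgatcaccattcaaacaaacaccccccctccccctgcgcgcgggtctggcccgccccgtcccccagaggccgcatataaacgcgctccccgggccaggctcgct
DUSP2: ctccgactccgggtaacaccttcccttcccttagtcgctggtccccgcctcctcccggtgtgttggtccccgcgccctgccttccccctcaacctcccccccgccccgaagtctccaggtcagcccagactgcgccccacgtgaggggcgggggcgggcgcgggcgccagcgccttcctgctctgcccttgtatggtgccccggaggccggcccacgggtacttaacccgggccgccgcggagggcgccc
The DUSP1 window held 4 matches to TGACG, counting both strands, and 2 of them overlap in the full palindromic element TGACGTCA at positions -125 to -118 from the start. A TATAAA stood at positions -30 to -25. Of the 35116 RefSeq windows that run from 250 bases before to 50 after a start, 24.6% held TGACG at least once, 0.313% held it 4 or more times, and 1.85% held TGACGTCA. The DUSP2 window held neither motif, and both windows were rich in G and C (74.4% in DUSP1 and 74.0% in DUSP2).

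For the genes described here, 12 such windows from 8 of the 10 genes were searched, with none from DUSP4 or DUSP5. DUSP1 alone among the 8 had TGACGTCA, in 1 of the 12 windows. TGACG was found in 5 of the 12 windows (24.6% of all windows) and in 5 of the 8 genes, DUSP1, DUSP10, SPRY2, SPRY4 and SPRED2. Of these, DUSP1 and DUSP10 rose, and SPRY2, SPRY4 and SPRED2 did not pass. The match of DUSP10 lay across a start, at positions -4 to 1. GGGCGG, the GC box, was in 9 of the 12 windows, from 7 of the 8 genes (45.0% of all windows). TATAAA was in 2 of the 12, from DUSP1 and SPRED2 (11.5% of all windows), TGANTCA, the AP-1 motif, in 1 of the 12, from SPRED2 (7.71% of all windows), and CCGGAAGT, an ETS motif, in 0 of the 12 (4.14% of all windows). Each motif was searched on both strands, and these matches describe letters only.

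DUSP10, or MKP-5, prefers p38 and JNK to ERK. It lies at chr1:221701424-221742176 on the minus strand of GRCh38. Control levels in line order were 15.9, 4.11 and 8.12 RPKM, against 28.7, 8.83 and 19.8 RPKM under the GSK343 label and 17.8, 8.77 and 17.0 RPKM under the shEZH2 label. All 6 targeted libraries exceeded the control of their line, and the smallest step was that of the MDA-MB-231 library labelled shEZH2, at 1.12 times its control. The other 5 ratios lay between 1.81 and 2.44. DUSP10 rose 1.98-fold under the GSK343 label (log2 difference 0.98 ± 0.38; limma, Benjamini-Hochberg adjusted p = 0.00721) and 1.61-fold under the shEZH2 label (0.69 ± 0.38; adjusted p = 0.0266). For both together the log2 difference was 0.84 ± 0.33 (limma adjusted p = 0.00470).

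The DUSP10 calls depended on single libraries. Without the MDA-MB-453 control the GSK343 difference was 0.86 (limma adjusted p = 0.0600) and that of both labels 0.71 (adjusted p = 0.0512). Without all libraries labelled MDA-MB-453 these were 0.88 (limma adjusted p = 0.125) and 0.71 (adjusted p = 0.0948). The shEZH2 difference lost its call without the control of MDA-MB-436 (0.64; limma adjusted p = 0.0696), the control of MDA-MB-453 (0.57; 0.123), the shEZH2 library of MDA-MB-436 (0.56; 0.133), the shEZH2 library of MDA-MB-453 (0.60; 0.125), all of MDA-MB-436 (0.57; 0.134) or all of MDA-MB-453 (0.55; 0.225). It kept its direction in each case.

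DUSP5 is a nuclear phosphatase that acts on ERK and holds it in the nucleus. Its gene lies at chr10:110497838-110511544 on the plus strand of GRCh38. It was measured, in line order, at 34.2, 18.0 and 26.3 RPKM without targeting, at 42.0, 33.2 and 33.4 RPKM under the GSK343 label, and at 38.1, 28.9 and 34.0 RPKM under the shEZH2 label. The targeted libraries were again all above their own controls, with ratios from 1.11 in MDA-MB-231 under shEZH2 to 1.85 in MDA-MB-436 under GSK343. DUSP5 rose 1.36-fold for both labels together (log2 difference 0.44 ± 0.29; limma, Benjamini-Hochberg adjusted p = 0.0407). The separate differences, 0.49 ± 0.33 for GSK343 and 0.39 ± 0.33 for shEZH2, did not pass (limma adjusted p = 0.0672 and 0.117). The joint call was near the threshold and was lost in 11 of the 12 fits that left out 1 library or 1 line, all but the one without the MDA-MB-231 control. Its difference in those 12 fits ran from 0.28 to 0.55, with adjusted p from 0.0403 to 0.341 in limma.

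**Figure D2:**
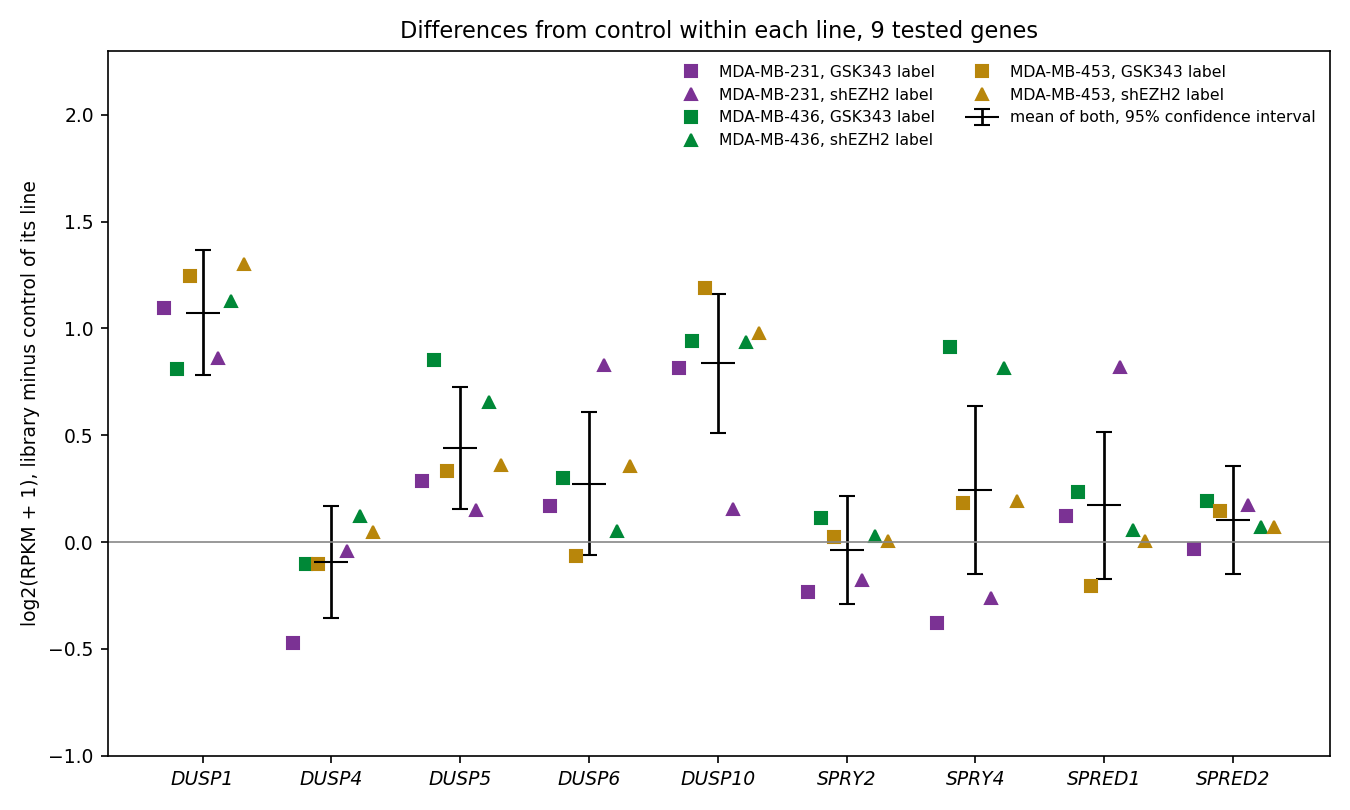
Difference from the control of the same line on the log2(RPKM + 1) scale (vertical axis) for the 9 tested genes (horizontal axis), with 1 point per targeted library, coloured by line and shaped by label. Black marks show the mean of both labels with its 95% confidence interval, which is wholly above 0 for DUSP1, DUSP5 and DUSP10 and includes 0 for the other 6 genes.

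DUSP1, DUSP5 and DUSP10 were the only 3 of the 9 tested genes with all 6 targeted libraries above the control of their line, an arrangement seen in 19.4% of all genes tested. In 0 of the 9 did the lowest targeted library exceed the highest control (4.57% of all genes tested).

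DUSP6, or MKP-3, is the cytoplasmic phosphatase specific for ERK and a standard readout of ERK activity. It lies at chr12:89347232-89353271 on the minus strand of GRCh38. The controls held 47.8, 0.373 and 29.9 RPKM of DUSP6 in line order, the libraries labelled GSK343 held 53.8, 0.691 and 28.5 RPKM, and 85.5, 0.424 and 38.6 RPKM were found under the shEZH2 label. MDA-MB-436 stood far below the other lines in every condition, on 29 to 53 reads, and MDA-MB-231 exceeded it 128-fold in the controls, 77.9-fold under the GSK343 label and 202-fold under the shEZH2 label. The MDA-MB-231 library labelled shEZH2 was the highest of the 9. No difference from control passed: it was 0.13 ± 0.39 for GSK343 and 0.41 ± 0.39 for shEZH2 (limma adjusted p = 0.667 and 0.152). The antisense gene AC024909.2 over DUSP6 had 0.420 to 1.09 RPKM in MDA-MB-231 and 0 RPKM in the 3 libraries of MDA-MB-436.

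DUSP4, or MKP-2, is a nuclear phosphatase of ERK and JNK. It stood, in line order, at 88.6, 22.2 and 49.2 RPKM in the controls, at 63.6, 20.6 and 45.8 RPKM under the GSK343 label, and at 86.1, 24.2 and 50.8 RPKM under the shEZH2 label. MDA-MB-231 was highest and MDA-MB-436 lowest in each condition, and the GSK343 library was the lowest of the 3 in every line. Its differences were -0.23 ± 0.30 for GSK343 and 0.04 ± 0.30 for shEZH2 (limma adjusted p = 0.328 and 0.869).

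DUSP2, or PAC-1, a nuclear phosphatase best known in immune cells, was close to absent. The controls had 0.525, 0.0308 and 0.0321 RPKM in line order, from 17, 1 and 1 reads. The targeted libraries had 4, 0 and 6 reads under the GSK343 label and 3, 0 and 2 reads under the shEZH2 label. The MDA-MB-231 control was the highest library, and the 0 reads of MDA-MB-436 allow up to 0.0937 RPKM under GSK343 and 0.0872 RPKM under shEZH2 (3 reads in each library, counting error only). DUSP2 missed the filter of 1 RPKM and no direction was read from these counts.

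The Sprouty genes encode membrane-associated inhibitors induced by growth factor signalling. SPRY2 had, in line order, 30.8, 10.8 and 20.0 RPKM in the controls, 26.1, 11.8 and 20.3 RPKM under the GSK343 label, and 27.1, 11.1 and 20.1 RPKM under the shEZH2 label. The libraries labelled MDA-MB-453 stayed within 20.0 to 20.3 RPKM. The differences of SPRY2 were -0.03 ± 0.29 for GSK343 and -0.05 ± 0.29 for shEZH2 (limma adjusted p = 0.908 and 0.851).

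SPRY4 (chr5:142310427-142326455, minus strand of GRCh38) showed another arrangement. The controls read 25.3, 10.6 and 17.9 RPKM in line order, while 19.3, 20.8 and 20.5 RPKM were read under the GSK343 label and 20.9, 19.4 and 20.6 RPKM under the shEZH2 label. The controls were spread, with MDA-MB-231 at 2.40 times MDA-MB-436, whereas under each label the highest line was 1.08 times the lowest. As SDs over the 3 lines, these were 7.39 RPKM in the controls, 0.814 RPKM under GSK343 and 0.832 RPKM under shEZH2. On the log2 scale, targeted minus control was -0.32, 0.87 and 0.19 in line order, and both labels had the same sign in each line. Averaged over lines, the difference was 0.24 ± 0.45 for GSK343 and 0.25 ± 0.45 for shEZH2 and did not pass (limma adjusted p = 0.495 and 0.469).

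Whether the response differed between lines was tested with an F-test in limma, which called 3 genes, or 0.0231% of those tested, and 0 of the 9 genes described here. The GSK343 and shEZH2 libraries of a line served as its targeted libraries, and the spread was that between them. Each line had 1 control library, whose own spread this test did not measure. At an unadjusted p under 0.05 there were 3710 genes in all, and SPRY4 alone among the 9, with F = 26.7 and an adjusted p of 0.0813. The difference of MDA-MB-436 from MDA-MB-231 was 1.19 ± 0.39 (limma adjusted p = 0.0677). SPRY4 passed without the filter on low values (limma adjusted p = 0.0456) and without the GSK343 library (0.0152) or the shEZH2 library (0.0175) of MDA-MB-231. In those last fits 3966 and 4049 genes passed in all. The antisense gene SPRY4-AS1 had 0.857, 1.45 and 1.17 RPKM in the controls of the 3 lines and 1.35 to 3.23 RPKM in the targeted libraries, highest in MDA-MB-436, and its part in the values of SPRY4 was not tested.

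**Figure D3:**
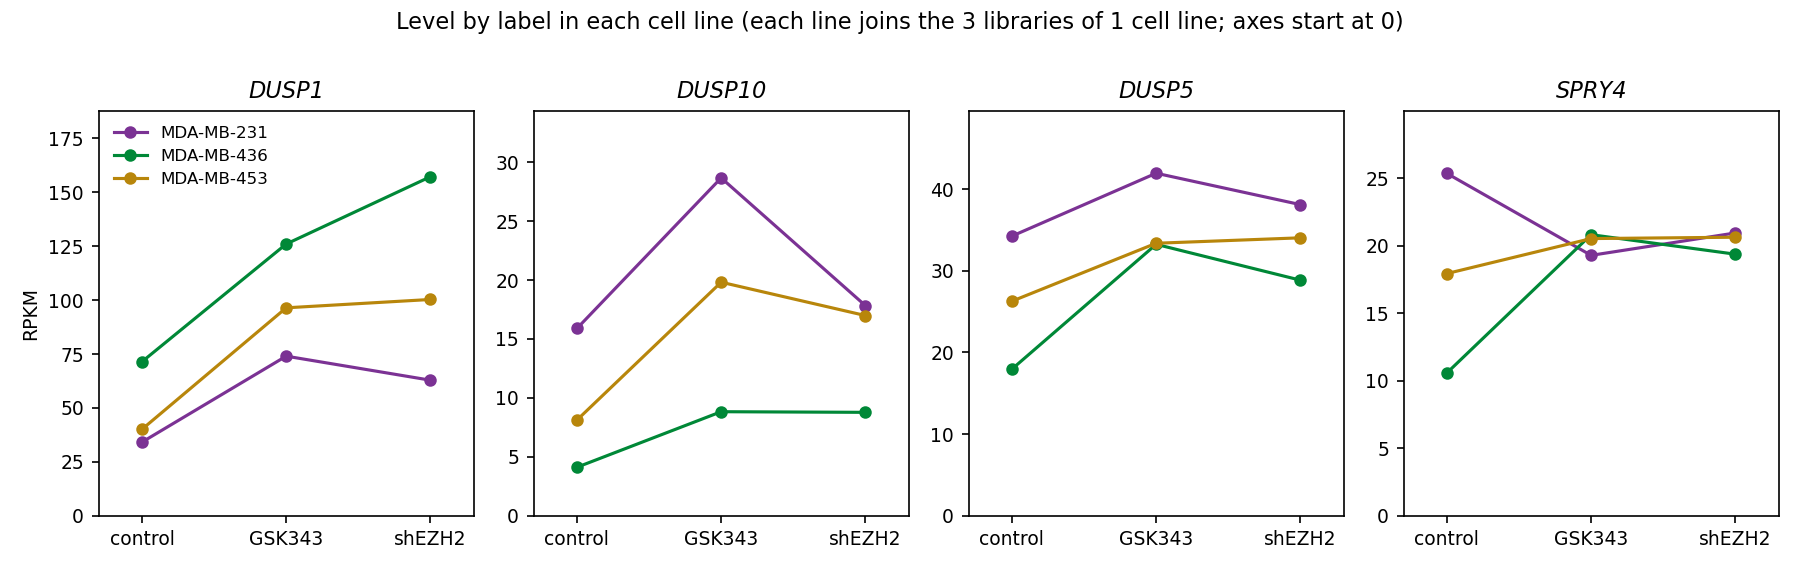
Level in RPKM (vertical axes, linear from 0) of DUSP1, DUSP10, DUSP5 and SPRY4 in the control, GSK343 and shEZH2 libraries (horizontal axis), with a coloured line joining the 3 libraries of each cell line as labelled. The lines of the first 3 genes all run upward from control, while those of SPRY4 converge from 10.6 to 25.3 RPKM in the controls to 19.3 to 20.8 RPKM under the GSK343 label.

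A ratio of highest to lowest line that was smaller under both labels than in the controls was also seen in DUSP4, DUSP5, DUSP10 and SPRY2, so in 5 of the 9 with SPRY4, and in 49.9% of all genes tested. A line above its control under both labels with another line below was seen in SPRY2 and SPRY4, and in 40.3% of all genes tested.

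SPRED1 and SPRED2 showed no called difference. In line order SPRED1 had 8.60, 6.05 and 10.9 RPKM in the controls, 9.46, 7.29 and 9.36 RPKM under the GSK343 label, and 15.9, 6.32 and 11.0 RPKM under the shEZH2 label. The MDA-MB-231 library labelled shEZH2 stood out at 1.86 times its control, as it did for DUSP6 at 1.79 times. The differences of SPRED1 were 0.05 ± 0.40 and 0.29 ± 0.40 (limma adjusted p = 0.892 and 0.317 for GSK343 and shEZH2). SPRED2 was the most even of the 10, with 16.1, 17.7 and 18.1 RPKM in the controls, 15.7, 20.3 and 20.2 RPKM under the GSK343 label and 18.2, 18.6 and 19.1 RPKM under the shEZH2 label. Its differences were 0.10 ± 0.29 and 0.11 ± 0.29 (limma adjusted p = 0.662 and 0.645).

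Set against each other, the GSK343 and shEZH2 labels gave 0 called differences among the 9 genes and 0 among all genes tested (0% in either direction; 295 genes and 0 of the 9 at an unadjusted p under 0.05). The largest differences of GSK343 minus shEZH2 were 0.29 ± 0.38 for DUSP10, -0.28 ± 0.39 for DUSP6 and -0.27 ± 0.30 for DUSP4 on the log2 scale. These intervals include 0 but are wide, and they do not show that the labels act alike.

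Levels also separated the lines. All 3 MDA-MB-231 libraries were above all 3 of MDA-MB-436 for DUSP4, DUSP5, DUSP6, DUSP10, SPRY2 and SPRED1, 6 of the 9 genes, as for 29.5% of all genes tested. The reverse held for 0 of the 9 (35.4% of all genes tested). DUSP1 alone of the 9 had its highest level in MDA-MB-436 in every condition. The library labelled MDA-MB-453 lay strictly between the other lines in 24 of the 27 combinations of gene and condition, and in all 3 conditions for 7 of the 9 genes, all but SPRED1 and SPRED2. Over all genes tested the share between was 46.9% in the controls, 73.7% under GSK343 and 82.9% under shEZH2.

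The genes of the same pathways that are not among the 10 were read from lists, whose counts for both labels together stand beside 12.2% of all genes tested that rose and 4.3% that fell. With 2 to 15 tested genes and at most 3 called in a list, nothing is read from these counts about a list as a whole. Of 3 tested further MAP kinase phosphatases, 1 fell for both labels together: DUSP9, a cytoplasmic phosphatase of ERK, by 0.59 ± 0.34 (limma adjusted p = 0.0276), with 0.0244 to 0.150 RPKM in MDA-MB-231 and 4.72 to 11.1 RPKM in MDA-MB-436. DUSP7 (-0.34 ± 0.29) and DUSP16 (0.36 ± 0.29) did not pass, and DUSP8, at 0.129 to 1.19 RPKM, was not tested. Of the 2 tested relatives of Sprouty, SPRED3 rose by 0.57 ± 0.27 (limma adjusted p = 0.0115) and SPRY1 did not pass (-0.05 ± 0.40), while SPRY3 was listed at 0 in all libraries.

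Of 15 tested genes of the RAS, RAF, MEK and ERK cascade, 0 passed in either direction for both labels together, with MAPK3, which encodes ERK1, at 0.42 ± 0.30 (limma adjusted p = 0.0548), NRAS at -0.38 ± 0.28 (0.0595) and MAP2K2 at 0.36 ± 0.36 (0.155). Of 12 tested genes of the p38 and JNK cascades 2 rose and 0 fell. These were MAPK13, which encodes p38 delta, at 1.08 ± 0.43 (limma adjusted p = 0.00494) and MAP2K3, which encodes a kinase that acts on p38, at 0.46 ± 0.32 (0.0491). In MDA-MB-436, MAPK13 was near the floor, at 0.0993 RPKM in the control, 0.394 RPKM under GSK343 and 0.343 RPKM under shEZH2. MAP2K4 stood at -0.34 ± 0.29 (limma adjusted p = 0.0990). Of 10 other inhibitors of RAS and ERK signalling 0 rose and 1 fell, the RAS GTPase-activating gene RASA1 by 0.60 ± 0.36 (limma adjusted p = 0.0300), and LRIG1 (-0.44 ± 0.35) and PEBP1 (-0.27 ± 0.27) did not pass.

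Among 10 genes that ERK signalling is known to raise, 2 rose and 1 fell. The immediate-early genes EGR1 and IER3 rose by 1.84 ± 0.84 and 1.26 ± 0.54 (limma adjusted p = 0.00956 and 0.00703), and the cyclin gene CCND1 fell by 0.54 ± 0.31 (0.0254). EGR1 was above control in 5 of the 6 targeted libraries, and in the MDA-MB-231 library labelled shEZH2 it was at 9.57 RPKM beside 11.6 RPKM in the control. AU-rich elements are the sequences by which short-lived transcripts such as that of DUSP1 are degraded or stabilised. Among the genes of 6 proteins that bind them, 1 rose and 2 fell. ZFP36 rose by 0.80 ± 0.34 (limma adjusted p = 0.00660), HNRNPD fell by 0.91 ± 0.26 (0.000937) and ELAVL1 fell by 0.38 ± 0.24 (0.0376). The medians of these lists lay between -0.34 and 0.26, beside 0.05 over all genes tested.

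Most of these calls were lost without the libraries labelled MDA-MB-453, in a fit that called 145 genes in all for both labels together, beside 2141 with them. Of the 15 genes called for both labels together in these lists and in the marker lists that follow, 2 still passed, HNRNPD at -0.88 ± 0.28 and CAV1 at -1.33 ± 0.32 (limma adjusted p = 0.0330 and 0.0206). All 15 kept their direction, with EGR1 at 1.76 ± 1.33 (limma adjusted p = 0.148), IER3 at 0.75 ± 0.36 (0.0708), ZFP36 at 0.56 ± 0.32 (0.0901) and MAPK13 at 0.90 ± 0.60 (0.117). Without the MDA-MB-436 library labelled shEZH2, 10 of the 15 still passed, and DUSP9, RASA1, MAP2K3, ELAVL1 and VIM did not (limma adjusted p = 0.0532, 0.0526, 0.0796, 0.110 and 0.0581).

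**Figure D4:**
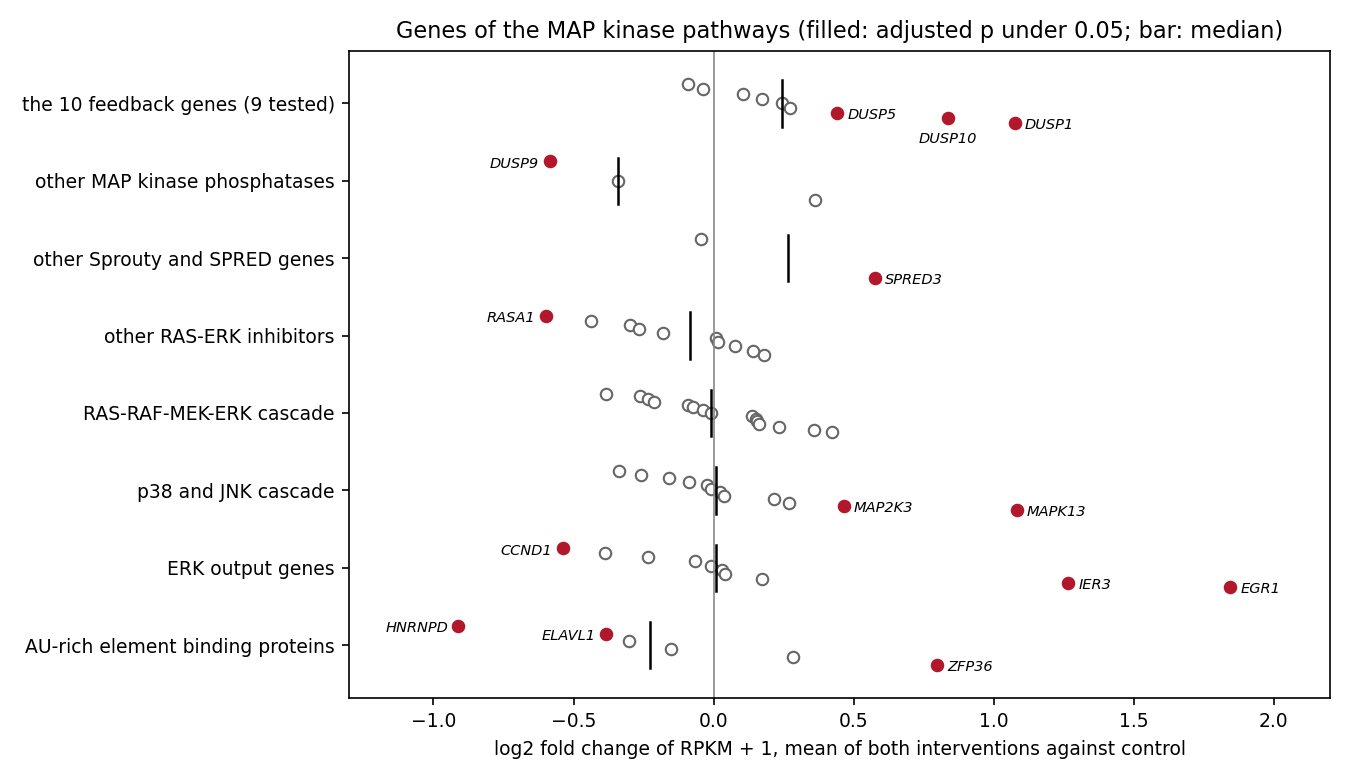
Log2 fold change of RPKM + 1 for the mean of both labels against control (horizontal axis) for the tested genes of each list (rows), 1 point per gene, filled where the limma adjusted p was under 0.05, with a vertical bar at the median of the list. The medians of the lists lie between -0.34 and 0.26, that of the 9 genes described here is at 0.24, and no gene of the RAS to ERK cascade is filled.

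Markers of line and of other cells moved with the labels in part. Of 6 mesenchymal markers 0 rose and 3 fell for both labels together (12.2% and 4.3% of all genes tested): CAV1 by 1.46 ± 0.29, AXL by 0.71 ± 0.29 and VIM by 0.57 ± 0.34 (limma adjusted p = 0.000152, 0.00559 and 0.0276). Their summed level was 825 to 1215 RPKM in the controls and 550 to 874 RPKM in the targeted libraries. Of 4 tested luminal markers 0 passed, with SPDEF at 0.71 ± 0.50, FOXA1 at 0.29 ± 0.30 and XBP1 at 0.25 ± 0.31. Of 3 tested fibroblast markers LUM rose by 0.58 ± 0.38 (limma adjusted p = 0.0416) at no more than 1.73 RPKM, PDGFRB and COL1A1 did not pass, and DCN was at most 0.0105 RPKM. Among leukocyte markers CD14 was at 3.78 to 12.5 RPKM and passed under the shEZH2 label (0.73 ± 0.42; limma adjusted p = 0.0332), but not without the libraries labelled MDA-MB-453 (0.61 ± 0.51; adjusted p = 0.209), PTPRC was at most 0.203 RPKM and CD3E at most 0.0425 RPKM. The endothelial markers PECAM1, VWF and CDH5 summed to at most 1.17 RPKM. The part of these markers in the levels of the 10 genes was not tested.

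The profiles most like those of the genes that rose were found by Pearson's correlation of log2(RPKM + 1), centred within line, over the 9 libraries, which share their controls and lines. As the highest values picked from 12965 genes, these r were not tested. For DUSP1 they were those of FUZ (r = 0.997), NEU1 (0.996) and TSPAN10 (0.992). NEU1 differed by 1.08 for both labels together, and FUZ, at 0.37, did not pass (limma adjusted p = 0.0504). For DUSP10 they were PAXIP1-AS1 (r = 0.994), DOK3 (0.991) and PEA15 (0.990), the last with a difference of 0.66. For DUSP5 they were CD163L1 (r = 0.997), LINC00888 (0.996) and CREB5 (0.996), and LINC00888 did not pass for both labels together (0.36; limma adjusted p = 0.0712).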

How the data were processed

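RNA-seq of 9 libraries was analysed from 1 deposited table of RPKM, read counts scaled to gene length and library size, for 58037 genes. The authors made it with STAR, HTSeq and the genome build GRCh38, per the submitters' processing notes. The sources used here do not give versions, annotation or strand setting, so a gene that overlaps another on the opposite strand is uncertain. Multiplied by GENCODE 29 exon lengths, low RPKM gave whole reads (within 0.05 reads, values up to 25 reads). This put the depth at 14757000 to 18283000 reads per library, and 92.5% of gene identifiers had the same version in that release.

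Columns were mapped by line and label, and all 9 were used. No pair of columns was identical. limma 3.58.1 in R 4.3.3 was fitted to log2(RPKM + 1) with label and cell line as terms and a mean-variance trend, on the 12965 genes that reached 1 RPKM in 3 or more libraries, which left 4 residual degrees of freedom. A second limma model, with 3 residual degrees of freedom, gave an F-test of whether targeted minus control differed between lines. It took the GSK343 and shEZH2 libraries of a line as repeats of 1 targeted state, and their difference gave the spread. P-values were two-sided and adjusted over all genes tested by Benjamini-Hochberg, with a threshold of 0.05. Each ± beside a log2 difference is the distance to the 95% confidence bound. The scripts were tested on simulated data.

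The line is the pairing and comes from the labels. Libraries of the same line deviated from their group means together (correlations of 0.358 to 0.953, against -0.957 to 0.09 between lines). Subtracting group means itself pushes the correlations between lines below 0, so this contrast was partly fixed in advance. An exact sign-flip test over 3 lines cannot go below p = 0.25, so the model across all genes was used. The members and the gene lists were chosen with earlier results of these data known. All members are named. From each list, up to 3 genes with the smallest p for both labels together are named, and the genes of lists of 5 or fewer. Some marker genes are not reported here. For each member that passed, the 3 genes with the most similar profile are named. Pseudocounts, filters, scaling, moderation, the term for line and the libraries fitted were varied. Leaving out targeted libraries in the F-test was added after seeing the data. The fits of EZH2 and the named list genes that left out libraries were added then too. These left out those labelled MDA-MB-453, or the MDA-MB-436 library labelled shEZH2.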

Additional observations from a re-analysis of the deposited data

Results flagged for a closer look

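SPRY2 and SPRY4 had lines that moved in opposite directions from their own controls, with both labels on the same side in each line. For SPRY4 the mean of both labels minus control was -0.321, 0.8651 and 0.1885 in line order (MDA-MB-231 first, MDA-MB-453 last), on the log2(RPKM + 1) scale. For SPRY2 the corresponding values were -0.2038, 0.0725 and 0.014. The difference between lines was tested by the F-test in limma and did not pass for either gene (adjusted p = 0.0813 for SPRY4 and 0.389 for SPRY2). Opposite directions of this kind were seen in 40.3% of all genes tested.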

How the results depend on the processing

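The results of the 9 tested feedback genes and the counts of genes called were refitted under the other settings of processing. EZH2 and the named list and marker genes were refitted only without the libraries labelled MDA-MB-453 or the MDA-MB-436 library labelled shEZH2. DUSP1 passed for both labels together in 20 of 21 alternatives, with adjusted p from 0.000123 to 0.354 in limma, DUSP10 in 17 of 21 (0.00155 to 0.653) and DUSP5 in 7 of 21 (0.0316 to 0.591). Under the GSK343 label DUSP1 passed in 19 of 22 and DUSP10 in 18 of 22, and under the shEZH2 label in 19 and 14 of 22. Without the replicate block for cell line, which takes away the pairing, 2, 2 and 3 genes passed for GSK343, shEZH2 and both together, beside 1018, 1377 and 2141 with it, and 0, 0 and 0 of the 9 feedback genes passed. Without a filter on low values 14, 15 and 186 genes passed, with 0, 0 and 1 of the feedback genes, and the F-test between lines called 887 genes with 1 feedback gene, beside 3 genes and 0. With a mean RPKM of at least 5, 1386 genes passed for both labels together, 1 for GSK343 against shEZH2 and 7 in the F-test. The causes of these shifts were not tested. Rescaling to a common sum turned the difference of SPRED1 under GSK343 to -0.0116 and that of SPRY2 for GSK343 against shEZH2 to -0.0534, both far from the threshold.

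Leaving out 1 library or 1 line gave 43 to 1250 genes for GSK343, 16 to 1621 for shEZH2, 145 to 2053 for both together, 0 to 3 for GSK343 against shEZH2 and 0 to 4049 in the F-test. The fewest were found without the libraries labelled MDA-MB-453 for each label and for both together. Feedback genes called ran from 0 to 2 for GSK343, from 0 to 2 for shEZH2 and from 1 to 3 for both together. Those called in the F-test are not counted here, since its fits without 1 targeted library left 1 in that line. A lone library left in a group was assumed to vary like the others. Log2 differences that changed sign among these fits were, for GSK343, those of DUSP6 (-0.039 to 0.23), SPRED1 (-0.10 to 0.19), SPRY2 (-0.11 to 0.0681) and SPRY4 (-0.10 to 0.55). For shEZH2 they were DUSP4 (-0.0081 to 0.12), SPRY2 (-0.10 to 0.036) and SPRY4 (-0.0627 to 0.53), and for both together SPRY2 (-0.0949 to 0.0433) and SPRY4 (-0.0662 to 0.53). For GSK343 against shEZH2 they were DUSP1 (-0.19 to 0.0881), DUSP5 (-0.0128 to 0.17), SPRED1 (-0.45 to 0.0012), SPRED2 (-0.0645 to 0.0971), SPRY2 (-0.0396 to 0.0821) and SPRY4 (-0.20 to 0.17). DUSP1, DUSP5 and DUSP10 kept their direction against control in all alternatives. Depth limited DUSP2, with at most 17 reads, and DUSP6 in MDA-MB-436, with at most 53.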
